A study of Mus musculus with 18 samples.

Results

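The genes described here are 10 genes of major histocompatibility complex (MHC) class I presentation, chosen by symbol: H2-K1, H2-D1, H2-Q4, H2-Q7, H2-T23, B2m, Tap1, Tap2, Tapbp and Nlrc5. All 10 were present in both expression tables of the series, among 19780 genes measured in LSK (Lin-Sca-1+c-Kit+ cells, the bone marrow compartment of stem and early progenitor cells) and 18428 genes measured in common myeloid progenitors (CMPs). RNA of sorted cells from female mice was sequenced in 18 samples, and the question addressed by the design was how these progenitors differ between lupus-prone and control mice and between disease stages. LSK were profiled in 4 groups of 3 samples. The F1-P group came from prediseased NZBW/F1 mice of 12 weeks, and the F1-L group from NZBW/F1 mice of 28 to 36 weeks with proteinuria. NZBW/F1 mice are bred by crossing NZB with NZW and become lupus-prone without further treatment. B6-Y and B6-O were C57BL/6 mice of the same 2 ages. CMPs were profiled in 3 F1-P and 3 F1-L samples. F1-L mice were thus both older and diseased, and age and disease cannot be told apart within the F1 strain. The labels do not say that the 3 samples of a group came from separate mice, so p-values measure the spread between these samples, which may in part be technical. A figure legend of the study gives n = 4 per replicate for CMPs without saying what was counted. If each replicate was a pool of mice, the SD of CMPs is that between pools, not between mice.

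MHC class I molecules display peptides from inside the cell to CD8 T cells and natural killer cells. A polymorphic heavy chain pairs with beta-2-microglobulin (B2m). Peptides made by the proteasome enter the endoplasmic reticulum through the TAP transporter, which is built from Tap1 and Tap2, and tapasin (Tapbp) holds the empty heavy chain beside the transporter until a peptide is bound. H2-K1 and H2-D1 are the classical heavy chains, whereas H2-Q4, H2-Q7 and H2-T23 (Qa-1, a ligand of natural killer cell receptors) are of the non-classical kind. Nlrc5 is the transactivator of class I genes, and interferons raise most genes of the pathway. Inbred strains carry different haplotypes at this locus. The mouse reference genome is that of C57BL/6, haplotype H-2b, while NZB mice carry H-2d and NZW mice H-2z, so reads of F1 heavy chains were placed on sequences of another haplotype.

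In the mm10 genome (GRCm38), 8 of the 10 genes lie in the MHC region of chromosome 17: Tapbp at chr17:33915899-33929292 (plus strand), H2-K1 at chr17:33996017-34000347 (minus), Tap1 at chr17:34187553-34197225 (plus), Tap2 at chr17:34203527-34216321 (plus), H2-D1 at chr17:35262730-35267499 (plus), H2-Q4 at chr17:35379617-35385290 (plus), H2-Q7 at chr17:35439155-35443773 (plus) and H2-T23 at chr17:36029773-36032855 (minus). B2m lies at chr2:122147686-122153083 (plus) and Nlrc5 at chr8:94434356-94527272 (plus). All are annotated as protein coding. The 5 heavy chains are near copies of each other: the longest open reading frames of the annotated transcripts were 91.5% identical between H2-K1 and H2-D1, 90.8% between H2-Q4 and H2-Q7 and 81.2% between H2-D1 and H2-T23. Reads were 75 bases long, and a read window of that length is ambiguous where another gene holds the same letters. Such windows made up 20.7% of the windows of H2-Q4, 794 of 4683 windows of H2-Q7, 5.9% of H2-T23, 5.6% of H2-D1 and 3.1% of H2-K1. Much of the H2-Q4 overlap (13.4%) was with the overlapping gene Gm11131, and the largest H2-Q7 overlap (8.9%) was with H2-Q10. Of the other members, Tapbp shared 18.6% of its windows, nearly all (17.5%) with the overlapping gene Gm19412, and Tap2 shared 8.3%, mostly with Gm15821. B2m shared 0 windows, Nlrc5 4 of 8662, and Tap1 2.4%, with its neighbour Psmb9. Whether counting used strand is not given in the sources used here, so reads of overlapping antisense genes cannot be told apart. These shares refer to the reference haplotype only.

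Nlrc5 acts on class I promoters through a composite element that includes an X2 box and a Y box, and interferons and NF-kB act through 2 further elements upstream of it. The promoters of H2-K1, H2-D1, H2-Q7 and B2m are shown because these hold an X2 box followed by a Y box. Of these, H2-Q7 was called lower in F1 at both ages and B2m higher in young mice only, while H2-K1 and H2-D1 were not called. Whether the boxes have a part in these differences was not tested. The sequences are from RefSeq (GRCm38.p6), run 5′ to 3′ on the gene's strand and end at the start annotated in RefSeq, and capitals mark the letters searched for on both strands: a kB site (the first run of capitals in each heavy chain promoter), an interferon-stimulated response element (the second run, in which the 2 bases before the last 3 could be any), an X2 box (TGACG) and a Y box (ATTGG, or CCAAT on the other strand). The marked motifs do not overlap.
H2-K1, chr17:34000348-34000522, minus strand: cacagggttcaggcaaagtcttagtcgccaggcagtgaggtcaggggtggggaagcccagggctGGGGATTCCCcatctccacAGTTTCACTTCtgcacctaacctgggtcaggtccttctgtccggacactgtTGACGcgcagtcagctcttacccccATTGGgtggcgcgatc
H2-D1, chr17:35262919-35263093, plus strand: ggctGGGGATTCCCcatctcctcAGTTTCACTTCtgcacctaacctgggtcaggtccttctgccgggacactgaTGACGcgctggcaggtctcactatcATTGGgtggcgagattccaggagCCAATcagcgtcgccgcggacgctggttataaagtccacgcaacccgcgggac
H2-Q7, chr17:35438980-35439154, plus strand: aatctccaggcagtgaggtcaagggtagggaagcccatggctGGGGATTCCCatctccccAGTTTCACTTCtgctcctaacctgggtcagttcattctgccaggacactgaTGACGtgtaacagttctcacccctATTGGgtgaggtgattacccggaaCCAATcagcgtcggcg
B2m, chr2:122147512-122147686, plus strand: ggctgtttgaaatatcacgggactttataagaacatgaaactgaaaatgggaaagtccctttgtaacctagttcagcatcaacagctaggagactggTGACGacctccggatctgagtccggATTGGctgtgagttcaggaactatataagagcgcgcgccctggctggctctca

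The 3 heavy chain promoters shared all 4 elements in the same order, while the B2m window held only the X2 and Y boxes in these letters. Promoters of 8 of the 10 members were in the RefSeq table, those of Tap2 and Nlrc5 were not. Over the 250 bases upstream of 32851 annotated mouse starts, the kB letters occurred in 0.0852% of promoters, the interferon element in 0.435%, the X2 box in 17.8%, the Y box in 33.8%, and an X2 box followed by a Y box with their starts 15 to 30 bases apart in 0.533%. H2-Q4 held the interferon element, no kB letters and no X2 box followed by a Y box on the same strand, and Tap1, Tapbp and H2-T23 held neither the kB nor the interferon letters. A match is a description of the letters, not of binding, and the F1 haplotypes were not used here.

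Library totals ranged from 23772252 to 28493747 reads in LSK and from 20001328 to 24761060 in CMPs, and the values (CPM) are read counts divided by a scaled library size. That size was 0.721 and 0.754 of the read total in F1-P samples 2 and 3 of LSK, which raises all their CPM values. It was 0.896 to 1.20 of the read total in the other LSK samples and 0.968 to 1.03 in CMPs. The share of reads on immunoglobulin genes was 16.8% to 36.6% in the F1 LSK samples, 0.301% to 4.76% in the C57BL/6 LSK samples and at most 0.255% in CMPs. Markers of plasma cells (8 genes, among them Jchain and Sdc1) summed to 9740 to 37900 CPM in F1 LSK and 253 to 2530 CPM in C57BL/6 LSK, those of T and natural killer cells (6 genes) to 136 to 336 against 47.2 to 99.9 CPM, and those of monocytes and macrophages (6 genes) to 337 to 703 against 32.0 to 170 CPM. The sums for B cells, mature neutrophils, plasmacytoid dendritic cells and erythroid cells overlapped between the strains. Each marker of these lists exceeded 3 reads in at least 1 sample of every LSK group. Kit was 257 to 442 CPM in F1 LSK, 296 to 657 CPM in C57BL/6 LSK and 416 to 668 CPM in CMPs. Cd34 was 169 to 295 CPM in F1 LSK and 462 to 751 CPM in C57BL/6 LSK, without overlap. Markers of LSK identity (8 genes, among them Kit, Ly6a and Cd34) summed to 1530 to 2280 CPM in F1 LSK and 2000 to 2910 CPM in C57BL/6 LSK. Ly6a, which encodes Sca-1, was 293 to 879 CPM in F1 LSK, 35.5 to 113 CPM in C57BL/6 LSK and 1.14 to 6.70 CPM in CMPs, although the sorting description lists Sca-1 as positive for CMPs too. The purity stated for the sort was at least 95%. In CMPs, markers of mature neutrophils (7 genes) summed to 278 to 7590 CPM in F1-P and 57.7 to 389 CPM in F1-L.

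In F1 LSK the members stood between the 83.9 and the 99.9 percentile of genes by mean CPM. Per kilobase of exon length, which allows levels of different genes to be compared, B2m was the highest member in each of the 6 groups, with 3432 ± 825 CPM per kb in LSK F1-P, 2581 ± 476 in F1-L, 1561 ± 415 in B6-Y and 1846 ± 415 in B6-O (SD, n = 3). In F1 LSK the order then ran H2-D1 (587 ± 36.4 in F1-P), H2-K1 (403 ± 21.2), H2-Q4 (145 ± 12.3) and H2-T23 (85.1 ± 14.1), and neighbours among these did not overlap between samples. In C57BL/6 LSK, H2-K1 came before H2-D1, with 561 ± 133 against 404 ± 74.8 CPM per kb in B6-Y, and their ranges overlapped. The peptide transporter and tapasin lay lower, between 38.2 and 64.5 CPM per kb on average in every LSK group, with overlap between most but not all neighbours. H2-Q7 and Nlrc5 closed the order in F1 LSK, with 17.6 ± 1.76 and 19.5 ± 2.68 CPM per kb in F1-P, ranges that overlapped. In C57BL/6 LSK, H2-Q7 stood higher, at 51.5 ± 12.7 CPM per kb in B6-Y, overlapping the ranges of Tap1 and Tapbp.

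**Figure D1:**
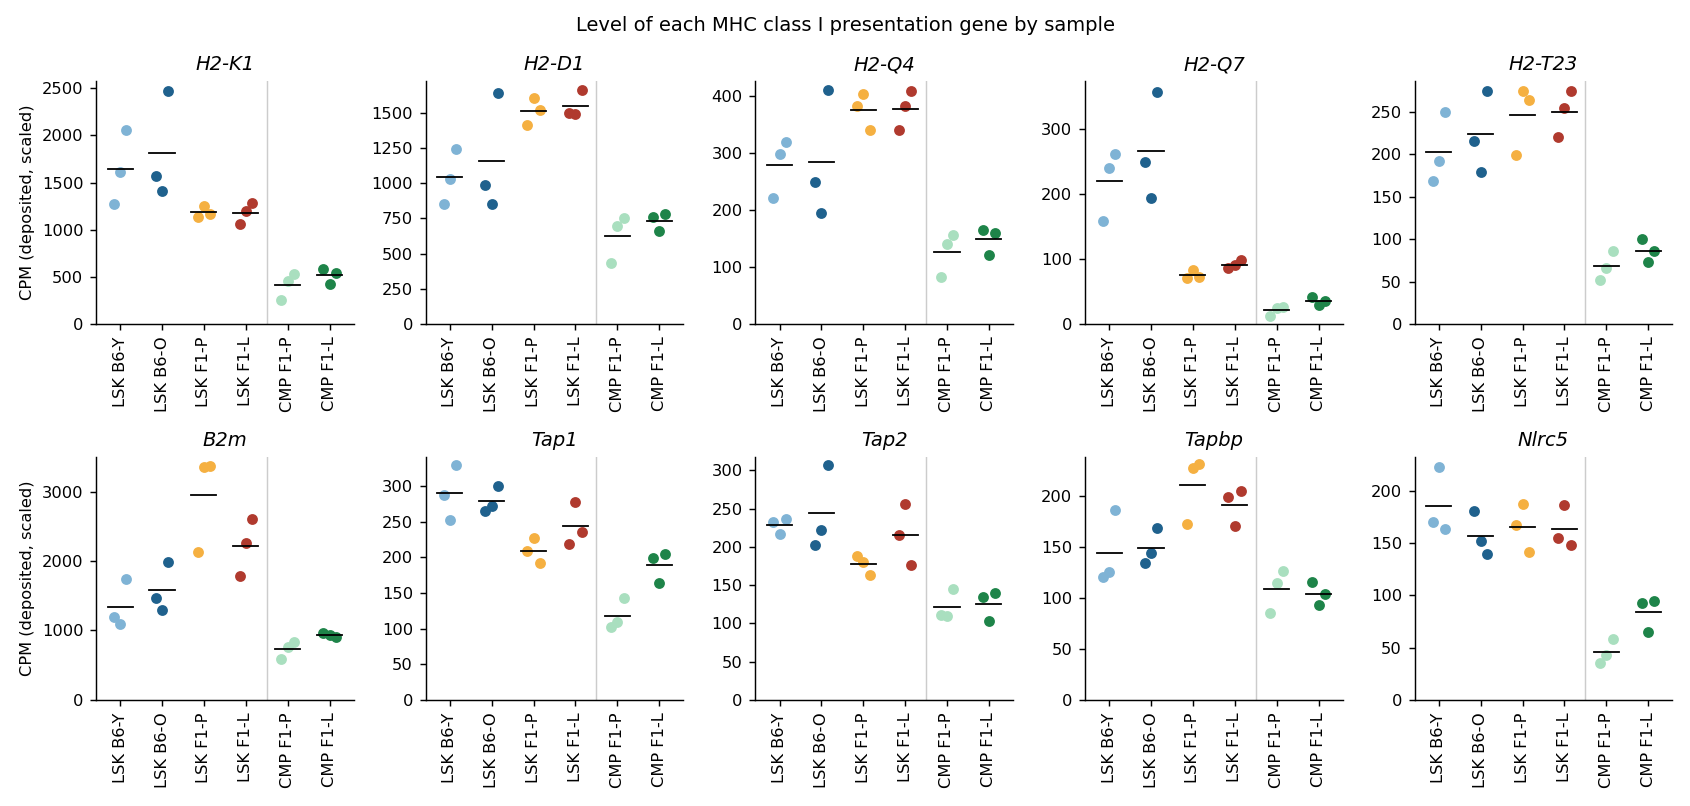
Level of each of the 10 genes in every sample (points, CPM on a linear axis from 0) with the group mean (line, n = 3), for the 4 LSK groups to the left of the grey line and the 2 CMP groups to its right. H2-Q7 was lower in F1 than in C57BL/6 LSK at both ages. B2m was higher in F1-P than in B6-Y without overlap, while F1-L and B6-O overlapped. Every member was lower in CMPs than in LSK of the same stage. The LSK and CMP values come from separately scaled tables.

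To compare strains before disease, LSK of F1-P were set against those of age-matched B6-Y. Of the 10 members, H2-Q7 was lower and B2m higher in F1-P, and the other 8 did not pass the test. A gene was called where limma gave an adjusted p no larger than 0.05 together with a change of more than 1.5 times, and of 14380 genes fitted 16.2% were called (10% higher and 6.18% lower). The 2 of 10 members called are near the share of all genes, and the quasi-likelihood test of edgeR, its likelihood ratio test and DESeq2 called the same 2 members (with 15.9%, 19.1% and 19.7% of all genes). The strains differ at very many genes, the F1 samples held far more immunoglobulin reads, and heavy chain reads were mapped across haplotypes; the part of these in the strain comparisons was not tested. In bulk samples, a smaller share of cells and less RNA per cell cannot be told apart.

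H2-Q7 encodes a non-classical heavy chain of the Qa-2 group. Its level was 70.0, 83.7 and 71.5 CPM in the 3 F1-P samples and 85.4, 90.9 and 97.7 CPM in F1-L. It was 158.7, 239 and 261 CPM in B6-Y and 249.1, 194 and 356 CPM in B6-O. All 6 F1 samples lay below all 6 C57BL/6 samples. The log2 fold change was -1.51 ± 0.20 (SE) for F1-P against B6-Y (95% interval -1.97 to -1.05, adjusted p = 0.00203 in limma) and -1.49 ± 0.22 for F1-L against B6-O (-2.01 to -0.97, adjusted p = 0.00643). The call was kept by edgeR and DESeq2 and in every fit that left out 1 library. In the comparison at the older age 11.6% of 14381 genes were called (7.84% higher and 3.75% lower), and H2-Q7 was the only member among them, as it was in the likelihood ratio test (14.6% of all genes) and DESeq2 (16.2%). Its reads share stretches with H2-Q10 and H2-Q6, and the sequence of the F1 alleles was not used here.

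B2m, the invariant light chain, showed 2132, 3353 and 3369 CPM in F1-P and 1792, 2257 and 2609 CPM in F1-L. Its level was 1189, 1088 and 1750 CPM in B6-Y and 1473, 1302 and 1988 CPM in B6-O. The young groups did not overlap, whereas the older groups did. The log2 fold change for F1-P against B6-Y was 1.14 ± 0.32 (95% interval 0.40 to 1.88, adjusted p = 0.0466 in limma), and for F1-L against B6-O it was 0.49 ± 0.32 (-0.28 to 1.25, adjusted p = 0.365). The call in young mice was lost when genes were not filtered (adjusted p = 0.0592) and when B6-Y sample 1 or 2 or F1-P sample 2 or 3 was left out (adjusted p = 0.182, 0.128, 0.175 and 0.154). The 2 F1-P samples highest in B2m were those with 36.6% and 35.1% immunoglobulin reads, and the lowest had 19.2%. In F1-L the shares of immunoglobulin reads were 16.8%, 21.6% and 25.6%, in the same order as B2m. The shares in B6-O (0.503%, 0.301% and 4.76%) also ran in that order. Those in B6-Y (0.918%, 2.86% and 2.85%) did not, since sample 2 had the largest share and the lowest B2m. The part of immunoglobulin reads and of the library scaling in B2m was not tested.

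**Figure D2:**
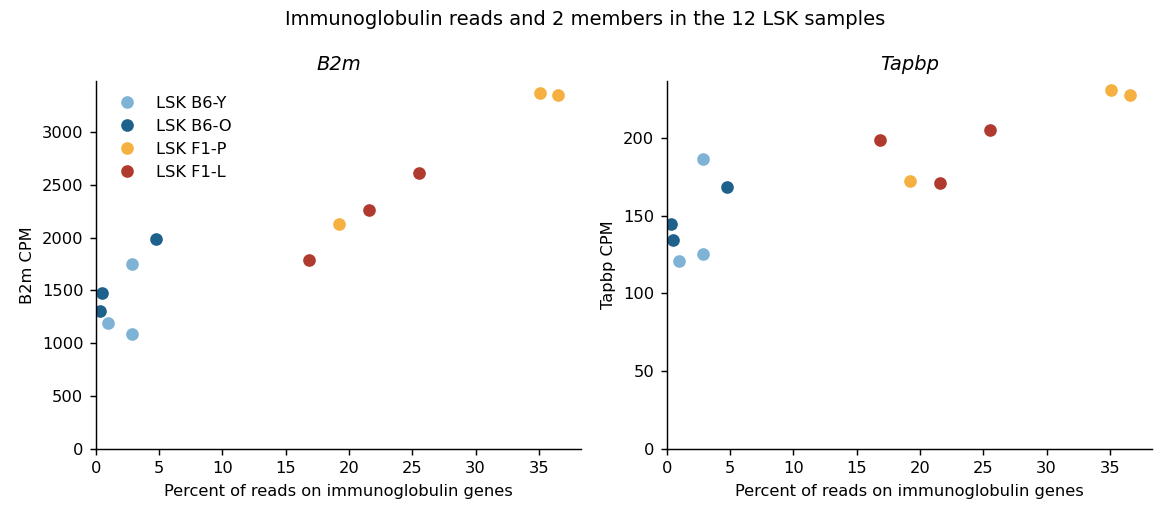
CPM of B2m and of Tapbp (vertical axes, from 0) against the percent of reads on immunoglobulin genes (horizontal axis) in the 12 LSK samples, coloured by group. The 6 F1 samples lay between 16.8% and 36.6% and the 6 C57BL/6 samples at or below 4.76%. The 2 F1-P samples with the most immunoglobulin reads had the highest B2m and Tapbp values in CPM. Their scaled library sizes were 0.721 and 0.754 of their read totals, the lowest of the 12 samples. The part of this scaling in their values was not tested.

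The classical heavy chains lay on opposite sides of the strain comparison. H2-K1 was 1132, 1254 and 1170 CPM in F1-P, 1061, 1196 and 1289 CPM in F1-L, 1278, 1612 and 2054 CPM in B6-Y and 1570, 1407 and 2467 CPM in B6-O. Each F1 sample was below each C57BL/6 sample of its age. H2-D1 was 1415, 1602 and 1523 CPM in F1-P, 1499, 1489 and 1664 CPM in F1-L, 856, 1031 and 1241 CPM in B6-Y and 988, 850.3 and 1644 CPM in B6-O. Here the young groups did not overlap, while B6-O sample 3 reached into the range of F1-L. Neither gene passed the test: the log2 fold change of F1-P against B6-Y was -0.45 ± 0.25 for H2-K1 (95% interval -1.02 to 0.12, limma adjusted p = 0.265) and 0.55 ± 0.22 for H2-D1 (0.03 to 1.07, adjusted p = 0.137), and that of F1-L against B6-O was -0.58 ± 0.31 (adjusted p = 0.267) and 0.48 ± 0.31 (adjusted p = 0.362). Without B6-O sample 3, H2-D1 and H2-Q4 were also called in the older mice, with log2 fold changes of 0.76 and 0.77. In both strain comparisons H2-Q4 and H2-T23 leaned towards F1, with 0.44 ± 0.18 and 0.28 ± 0.19 in young and 0.47 ± 0.27 and 0.18 ± 0.19 in older mice, none past the test.

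Among the transport and loading members, Tapbp, the chaperone of the loading step, was 172.5, 228 and 231 CPM in F1-P against 121, 126 and 186 CPM in B6-Y, with a log2 fold change of 0.56 ± 0.20 (limma adjusted p = 0.103), and 0.36 ± 0.14 in F1-L against B6-O (adjusted p = 0.156). Without B6-Y sample 3 Tapbp was called in the young comparison, at 0.76 (limma adjusted p = 0.0307). Tap1, a subunit of the transporter, was 209, 227 and 192 CPM in F1-P against 287, 252 and 330 CPM in B6-Y. These groups did not overlap, and the difference of -0.46 ± 0.15 did not pass limma (adjusted p = 0.0696). Tap2 was 188, 180.5 and 164 CPM against 233, 217 and 236 CPM, again without overlap, with -0.36 ± 0.12 (adjusted p = 0.0799). Without overlap between the young groups, 3 members (H2-D1, H2-Q4 and B2m) were higher in F1-P, against 17.4% of all genes, and 4 (H2-K1, H2-Q7, Tap1 and Tap2) were lower, against 18.1%. Between F1-L and B6-O, Tapbp was higher without overlap (17.5% of all genes) and H2-K1 and H2-Q7 were lower (20%). Nlrc5 lay between 139 and 223 CPM in all 12 LSK samples and differed by -0.16 ± 0.17 in young and 0.05 ± 0.16 in older mice.

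**Figure D3:**
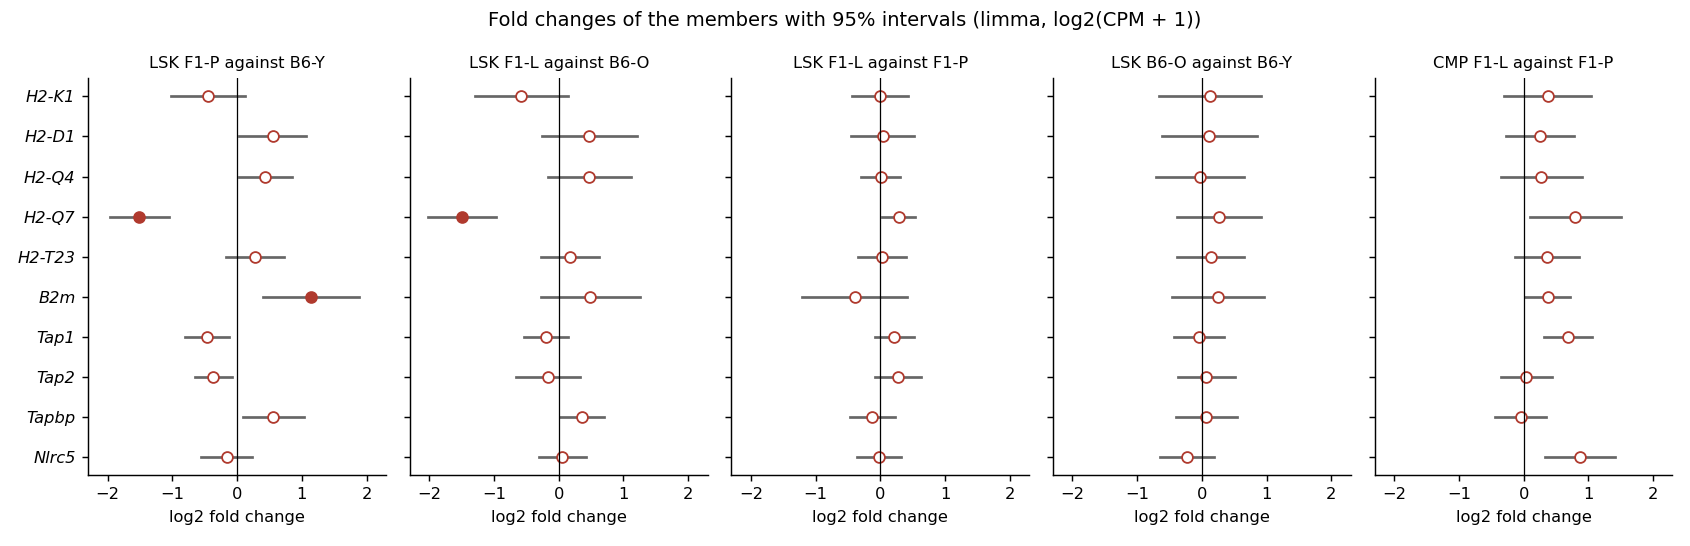
Log2 fold changes of the 10 genes (points) with 95% intervals from limma on log2(CPM + 1) in 5 comparisons of 3 against 3 samples, filled where the gene was called. Filled points were H2-Q7 at -1.51 and B2m at 1.14 in F1-P against B6-Y and H2-Q7 at -1.49 in F1-L against B6-O. The F1-P and F1-L groups and the C57BL/6 groups each serve in 2 of the LSK comparisons.

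Of the other heavy chain genes of the class I family, several had many reads in every F1 sample and few or 0 in C57BL/6 LSK. The list held 28 symbols, of which 17 were in the LSK table and 13 passed the filter on low values. H2-Q1, H2-Q2, H2-Bl and H2-T3 averaged below 1 CPM in B6-Y and entered the comparison of young mice through the F1 samples, where they were high, so their levels are given without a test. H2-Q1 had 362 to 474 reads in each F1 sample and 0 to 3 reads in each C57BL/6 sample. H2-Q2 had 1398 to 1912 reads in F1 and 4 to 44 in C57BL/6. H2-Q10, whose product is known as a secreted class I protein of the liver, had 1209 to 1725 reads in F1 and 17 to 352 in C57BL/6. H2-T3, the thymus leukaemia antigen, had 153, 119 and 182 reads in F1-P and 262, 535 and 387 reads in F1-L, against 4 to 9 in B6-Y and 34 to 45 in B6-O. Among genes above 1 CPM in every LSK sample, H2-K2 was 63.1 to 76.1 CPM in F1 and 7.55 to 25.3 CPM in C57BL/6, with log2 fold changes of 2.40 ± 0.22 in young and 2.37 ± 0.39 in older mice (limma adjusted p = 0.000327 and 0.00906). H2-T24 (2.08 ± 0.35 and 2.51 ± 0.15) and the pseudogene H2-T-ps (1.96 ± 0.21 and 2.02 ± 0.21) were also called higher in F1 at both ages, where 10% and 7.84% of all genes were. H2-Q6, the near neighbour of H2-Q7, was the most abundant gene of the list in LSK, with 255, 381 and 396 CPM in B6-Y against 227, 258 and 212 CPM in F1-P, and did not pass the test (-0.54 ± 0.20, adjusted p = 0.101). Even within the reference haplotype, windows shared with another gene made up 12.5% of H2-Q10, 10.9% of H2-Q1, 8.1% of H2-Q2 and 21.1% of H2-Q6. H2-T3 shared 0 windows and H2-T24 0.5%. How reads of shared windows were counted is not given in the sources used here. Presence of the gene in 1 haplotype, its expression and the mapping of reads from other haplotypes cannot be told apart in these tables.

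**Figure D4:**
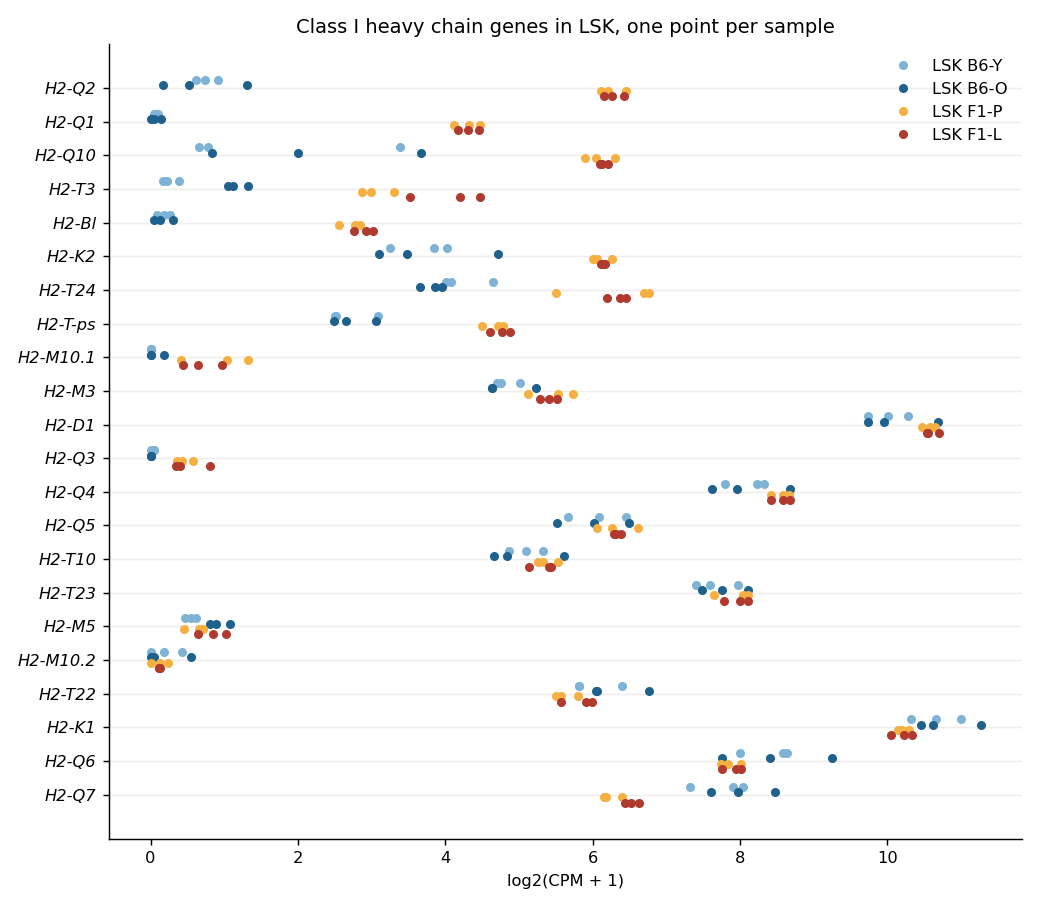
Level of the 22 class I heavy chain genes of the LSK table (rows) in log2(CPM + 1), one point per sample in the colour of its group, ordered by the mean difference between the 6 F1 and the 6 C57BL/6 samples. H2-Q2, H2-Q1, H2-Q10, H2-T3 and H2-Bl stand at the top with the widest gaps between strains, and H2-Q7 is at the bottom.

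Summed over all 22 class I heavy chain genes of the LSK table, the level was 4194 ± 314 CPM in F1-P, 4274 ± 325 in F1-L, 3972 ± 828 in B6-Y and 4385 ± 1517 in B6-O (SD, n = 3), and the groups overlapped in all 4 comparisons. B6-O sample 3, with 6102 CPM, and B6-Y sample 1, with 3126 CPM, were the extremes. The log2 difference was 0.10 for F1-P against B6-Y (exact permutation p = 0.8, two-sided), 0.01 for F1-L against B6-O (p = 1.0 in the exact permutation test), 0.03 for F1-L against F1-P (exact permutation p = 0.7) and 0.11 for B6-O against B6-Y (exact permutation p = 0.8). An exact test of 3 against 3 samples cannot give a p below 0.1. The shares of the sum taken by H2-K1, H2-D1 and H2-Q7 varied less between samples of a group than the sum did, whereas those of some rarer genes ranged more widely, such as H2-Q6 with 6.64% to 9.97% in B6-O and H2-T24 with 1.13% to 2.5% in F1-P. H2-K1 took 27.6% to 28.9% of class I heavy chain reads in F1-P and 26.8% to 28.1% in F1-L, against 40.2% to 43.0% in B6-Y and 40.4% to 43.6% in B6-O. H2-D1 took 35.3% to 36.9% and 35.0% to 37.9% in F1 against 25.7% to 27.4% and 25.8% to 26.9% in C57BL/6. H2-Q7 took 1.73% to 1.85% in F1-P and 2.12% to 2.16% in F1-L, against 5.08% to 5.96% in B6-Y and 5.83% to 6.51% in B6-O. The strains did not overlap in any of these 3 shares, and B6-O sample 3, the highest in level, gave 40.4% H2-K1 and 26.9% H2-D1, both outside the F1 ranges. Shares of 1 total depend on each other, and no test was made of them.

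**Figure D5:**
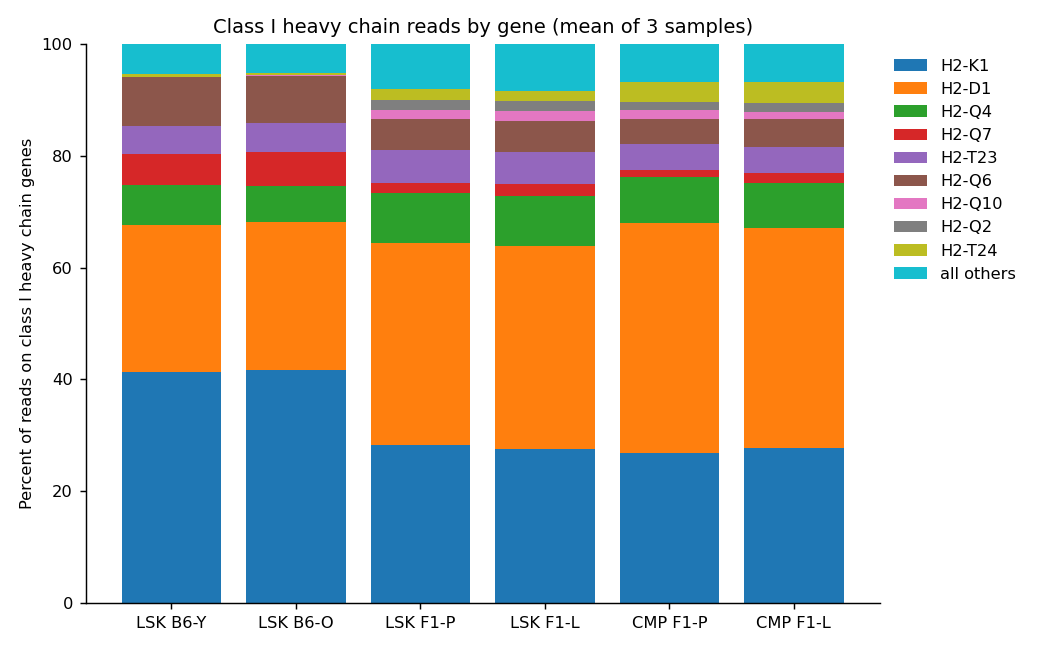
Mean percent of the reads on class I heavy chain genes that fell on each gene (stacked bars from 0 to 100%, mean of 3 samples) in the 6 groups. H2-K1 made up 41.4% and 41.7% in the C57BL/6 groups and 26.8% to 28.3% in the F1 groups, in LSK and CMPs alike.

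Between stages within the F1 strain, LSK of F1-L were set against those of F1-P. No member was called, where 4 of 14332 genes (0.0279%) were, and the 2 edgeR tests and DESeq2 called 0 members too, with 0.0209%, 4.6% and 5.16% of genes called. The members' log2 fold changes ran from -0.40 (B2m, ± 0.34, 95% interval -1.21 to 0.42) to 0.28 (H2-Q7, ± 0.11, 0.03 to 0.54), with a median of 0.02 against -0.01 over all genes. H2-Q7 was the 1 member with an unadjusted limma p under 0.05 (adjusted p = 0.337), where 12.8% of all genes had one. It was also the 1 member whose stages did not overlap, where 17.7% of all genes did not. For H2-K1, H2-D1 and H2-Q4 the difference was -0.01, 0.03 and 0.01, with 95% intervals of -0.44 to 0.43, -0.45 to 0.52 and -0.30 to 0.31. Changes of either sign within these intervals were not excluded, and the intervals are not a limit of detection. Tap1 and Tap2 differed by 0.22 ± 0.13 and 0.27 ± 0.15 (limma adjusted p = 0.541 and 0.518). Plasma cell markers summed to 14600 to 37900 CPM in F1-P and 9740 to 13000 CPM in F1-L, and B cell markers to 279 to 381 and 151 to 181 CPM. Mature neutrophil markers summed to 267 to 1160 CPM in F1-P and 1750 to 11000 CPM in F1-L. Those of T and natural killer cells, monocytes and macrophages, plasmacytoid dendritic cells and erythroid cells overlapped between the stages.

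The same step of age in C57BL/6 mice, B6-O against B6-Y, gave 0 called members in limma, edgeR and DESeq2, where limma and edgeR's quasi-likelihood test called 0 of 14005 genes, the likelihood ratio test 0.821% and DESeq2 1.39%. An unadjusted limma p under 0.05 was found for 6.62% of genes and 0 members. The members' log2 fold changes lay between -0.23 (Nlrc5) and 0.26 (H2-Q7), and all 10 overlapped between the ages, where 11.3% of genes did not. B6-O sample 3 was the highest of its group for each member except Nlrc5. The difference between the 2 strains in the step of age and stage was also tested directly. For B2m it was -0.65 ± 0.43 (95% interval -1.59 to 0.29) and for the other 9 members it lay between -0.20 and 0.27. In limma and edgeR's quasi-likelihood test 0 members and 0 of 15084 genes passed, and 0 members and 3.92% of genes had an unadjusted limma p under 0.05. The likelihood ratio test and DESeq2 called 0.0663% and 0.199% of genes, with 0 members among them.

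In CMPs most members had a higher mean in F1-L than in F1-P. Limma and edgeR's quasi-likelihood test called no member, and each 1 of 12926 genes (0.00774%), while edgeR's likelihood ratio test, the test of the study, and DESeq2 called Tap1 and Nlrc5 higher in F1-L. The likelihood ratio test called 2.46% of genes (0.348% higher) and DESeq2 2.71% (0.464% higher), and these 2 tests call more genes than limma in every comparison here. Of the 10 members 9 were higher on average, where 58% of all genes were, and the median log2 fold change was 0.36 against 0.04 over all genes. H2-Q7, B2m, Tap1 and Nlrc5 were higher in F1-L without overlap (4 of 10, against 9.45% of all genes), and these 4 had an unadjusted p under 0.05 in limma, as 4.55% of all genes did in this direction.

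For both genes all F1-L samples lay above all F1-P samples. Tap1 was 102, 108.5 and 143 CPM in the F1-P CMPs and 199, 164 and 205 CPM in F1-L. The difference was 0.69 ± 0.15 (95% interval 0.31 to 1.06), with an adjusted p of 0.353 in limma, 0.314 in edgeR's quasi-likelihood test, 0.0217 in the likelihood ratio test and 0.0131 in DESeq2. Nlrc5 was 35.5, 43.1 and 58.4 CPM in F1-P and 92.6, 64.9 and 94.1 CPM in F1-L, a difference of 0.87 ± 0.22 (0.33 to 1.41), with an adjusted p of 0.381, 0.334, 0.0311 and 0.0247 in the same 4 tests. Both likelihood ratio calls were lost when F1-L sample 1, F1-L sample 3 or F1-P sample 2 was left out (adjusted p = 0.318, 0.248 and 0.371 for Tap1 and 0.383, 0.279 and 0.374 for Nlrc5), and kept without each of the other 3 samples.

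H2-Q7 was 12.5, 24.2 and 26.0 CPM in F1-P CMPs and 42.0, 29.6 and 35.7 CPM in F1-L (0.80 ± 0.29, limma adjusted p = 0.481), and B2m 595, 763 and 835 CPM against 964, 938 and 909.6 CPM (0.37 ± 0.14, adjusted p = 0.486). F1-P sample 1 was the lowest of its group for all 5 heavy chains, with 259 CPM of H2-K1 against 456 and 528 CPM in the other two, and 435 CPM of H2-D1 against 699 and 752 CPM. The stages overlapped for H2-K1, H2-D1, H2-Q4 and H2-T23, whose log2 fold changes were 0.37 ± 0.28, 0.26 ± 0.22, 0.28 ± 0.26 and 0.36 ± 0.21. Without F1-P sample 1 these were 0.0644, 0.0135, -0.0047 and 0.1816, and that of H2-Q7 was 0.4814. Tap2 and Tapbp gave 0.04 ± 0.16 and -0.05 ± 0.16. Summed over the 19 class I heavy chain genes of this table the level was 1531 ± 438 CPM in F1-P and 1867 ± 234 CPM in F1-L (log2 difference 0.32, exact permutation p = 0.3, two-sided), and the difference was 0.0667 without F1-P sample 1. In these samples the markers of B cells (34.9 to 160 against 9.08 to 23 CPM over 5 genes) and erythroid cells (562 to 1060 against 339 to 538 CPM over 4 genes) were lower in F1-L without overlap. Those of mature neutrophils were lower on average, with overlapping ranges (278 to 7590 CPM in F1-P and 57.7 to 389 CPM in F1-L). The part of these markers in the result was not tested. Cd3e, Ms4a7 and Tnfrsf17 were at or under 3 reads in every F1-L sample.

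Between cell types, each member was lower in CMPs than in LSK of the same stage, without overlap between samples. The background was the 12750 genes in F1-P and 12408 in F1-L with a mean of at least 1 CPM in both cell types. Of these, 43.1% in F1-P and 44.0% in F1-L had a lower mean in CMPs, and 24.6% and 29.9% were lower without overlap. The ratio of CMP to LSK means ran from 0.248 (B2m) to 0.687 (Tap2) in F1-P and from 0.346 (H2-T23) to 0.776 (Tap1) in F1-L, against a median ratio over the background genes of 1.09 and 1.1. Nlrc5 averaged 45.7 ± 11.7 CPM in CMPs and 165.6 in LSK in F1-P, and 83.9 ± 16.4 against 163 CPM in F1-L (SD, n = 3). Its ratio was 0.276 at the earlier and 0.514 at the later stage. Within each table H2-D1 stood at the 99.2 percentile of genes in CMPs and the 99.8 percentile in LSK of F1-P, and H2-Q7 at the 58.1 and 83.9 percentile. The tables were scaled separately and LSK carried more immunoglobulin reads, so these values stand side by side without a test. The heavy chain genes that were near 0 in C57BL/6 LSK had reads in F1 CMPs as well: H2-Q2 was 14.9 to 34.8 CPM and H2-Q1 3.31 to 8.87 CPM over the 6 samples. H2-K1 made up 26.8% of class I heavy chain reads in F1-P and 27.7% in F1-L CMPs, and H2-D1 41.2% and 39.4%.

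The remaining genes of the pathway were followed by lists. For comparison, limma called 16.2% of all genes in F1-P against B6-Y, 11.6% in F1-L against B6-O and at most 0.0279% in the other comparisons. A count of 0 in lists this short therefore does not show that their genes were unchanged. Of the immunoproteasome (Psmb8, Psmb9 and Psmb10) and its PA28 activator (Psme1 and Psme2), which make peptides suited to class I, 0 of 5 were called by limma in any comparison. Psme1 was 144 to 174 CPM and Psmb8 160 to 183 CPM in F1 LSK, and B6-O sample 3 was highest for both, with 332 and 273 CPM. Of the constitutive subunits Psmb5, Psmb6 and Psmb7, Psmb5 was lower in F1-L (12.4, 12.9 and 13.8 CPM) than in B6-O (24.3, 29.2 and 39.4 CPM), with -1.16 ± 0.20 and a limma adjusted p of 0.0119. Of 5 genes of peptide trimming and loading, Tapbpl, the tapasin-related peptide editor (TAPBPR), was higher in F1 in both strain comparisons: it was 63.7, 116 and 105 CPM in F1-P against 36.3, 36.3 and 43.0 CPM in B6-Y, with 1.24 ± 0.22 (limma adjusted p = 0.00827), and 0.79 ± 0.14 in F1-L against B6-O (adjusted p = 0.0137). The 2 F1-P samples with the most immunoglobulin reads, which also had the smallest scaled library sizes relative to their reads, were highest for it too. Calr, a chaperone of the loading complex, gave 0.71 ± 0.24 in the young comparison and did not pass (adjusted p = 0.0845).

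Of 9 regulators of class I genes, which include Rfx5, Rfxap and Rfxank of the complex that recruits Nlrc5, the NF-Y subunits that bind the Y box, and Irf1, 0 were called by limma in any comparison. The shares of all genes called are those given for the lists above. The 2 most abundant in LSK, Nfya (adjusted p = 0.0496 in limma, below the fold threshold) and Irf1, differed by -0.50 ± 0.14 and 0.12 ± 0.13 in F1-P against B6-Y. Of 10 interferon-stimulated genes, 5 were called lower by limma in F1-P than in B6-Y (Oasl2, Ifi44, Ifit1, Ifit3 and Usp18, with 889 of 14380 genes called lower overall) and 0 higher, with a median log2 fold change of -1.09. Oasl2 was 20.1, 16.4 and 27.3 CPM in F1-P and 67.8, 58.2 and 92.5 CPM in B6-Y (-1.73 ± 0.23, limma adjusted p = 0.0022), and Ifi44 21.4, 11.4 and 15.7 CPM against 40.8, 34.6 and 50.4 CPM (-1.35 ± 0.24, adjusted p = 0.00792). In F1-L against B6-O 0 of the 10 passed limma, where 11.6% of all genes did, and the median was -0.39. There DESeq2 called Rsad2 lower (adjusted p = 0.0199), among 16.2% of all genes. Between F1-L and F1-P the median was 0.36 in LSK and 0.50 in CMPs (9 genes tested). Limma called 0 of them in either, where it called 0.0279% and 0.00774% of all genes. Oasl2 was higher in LSK of F1-L by edgeR's likelihood ratio test (adjusted p = 0.00157) and DESeq2 (adjusted p = 0.000616), with a limma adjusted p of 0.172. These 2 count tests called 4.6% and 5.16% of all genes there.

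Across the 12 LSK samples the members did not follow 1 pattern. On log2(CPM + 1), H2-K1 ran most closely with H2-Q7 (Pearson r = 0.896) and Tap1 (0.729), and B2m with Tapbp (0.918), H2-D1 (0.840) and H2-T23 (0.816). Between H2-K1 and B2m r was -0.287. Among genes outside the members with a mean of at least 5 CPM, those most like H2-K1 were Ppan (0.962), Gas5 (0.958) and Npepl1 (0.954), those most like B2m were Spcs1 (0.981), Laptm4a (0.980) and Thnsl2 (0.977), and those most like Tap1 were Smad6 (0.920), Hsh2d (0.890) and Grik5 (0.885), out of 11316 genes ranked. The 12 samples fall into 2 strains that differ in immunoglobulin reads and scaling, which all genes share, so these coefficients describe these samples only.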

How the data were processed

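Per the labels and the methods, total RNA of sorted LSK and CMPs was made into Illumina TruSeq libraries, sequenced as single-end reads of 75 bases, aligned by the authors with STAR 2.6 to mm10, counted with HTSeq and modelled in edgeR. What the authors deposited is CPM, relative to a library size after scaling, and was treated as a signal comparable within a table. The design had assumed plain CPM. All values (100.0%) were whole multiples of 1 read (tolerance 0.05 read), and the recovered reads served the count tests.

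Members were found by symbol after identifiers were matched to GENCODE M21 (19770 and 18421 genes). Only the samples of a comparison entered its fit (all 12 LSK samples for the difference between strains). Genes that reached a CPM of 1 in 3 or more samples were tested with limma 3.58.1 (trend) on log2(CPM + 1), a scale that understates the change of low genes, in R 4.3.3. Adjustment was by Benjamini-Hochberg over all genes tested, with calls at an adjusted p of at most 0.05 and fold change above 1.5. The LSK comparisons share groups. Alternatives were pseudocounts of 0.1 and 0.5, no filter, a mean CPM of at least 5, 2 other scalings, a replicate block, all LSK samples in 1 fit, edgeR 4.0.16 (quasi-likelihood and likelihood ratio), DESeq2 1.42.0 and leaving out each sample. Leaving out samples in the likelihood ratio test of CMPs was added after seeing the data. Fits were tested on simulated data. No 2 samples of a group agreed within sampling noise.

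Members, lists and tests were chosen with earlier results of these data known. Named are the members, called genes of each list with the largest change (at most 4 per comparison, otherwise the 2 most abundant), the 2 chromosome 17 neighbours with the largest change and the 3 genes most like H2-K1, B2m and Tap1. H2-Q6, H2-Bl, H2-K2, H2-T24, H2-T-ps, Rsad2 and Calr were named after their values were seen. Exon length is the union of annotated exons. One gene of the regulator list is not reported here.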

Additional observations from a re-analysis of the deposited data

How the results depend on the processing

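Of the members' fold changes recomputed under other scalings, filters, pseudocounts, fits and tests, 626 kept their direction and side of the threshold, 9 turned direction, 4 were newly called and 1 was lost (B2m without the filter, which left 1 called member in F1-P against B6-Y). The turned values all lay near 0: F1-L against F1-P without immunoglobulin genes in the scaling gave H2-K1 0.0563 and Nlrc5 0.0439, B6-O against B6-Y gave H2-Q4 0.0248 in the 2 edgeR tests and DESeq2, and the difference between strains gave H2-D1 2e-04 without immunoglobulin genes and H2-Q4 -0.0167 in the 3 count tests. The summed heavy chain level in F1-L against B6-O was -0.0732 over the 5 members. Genes called in F1-L against F1-P numbered 26 with all 12 LSK samples in 1 fit, 659 in the likelihood ratio test and 740 in DESeq2, in F1-L against B6-O 978 at a mean CPM of at least 5, in B6-O against B6-Y 1 with median of ratios scaling, 15 with all LSK samples, 115 and 195 in the likelihood ratio test and DESeq2, in CMPs 0 at a mean CPM of at least 5 and 318 and 350 in the same tests (2 members in each), and for the difference between strains 10 and 30. The cause was not tested.

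Same-numbered samples did not deviate together in every pair (r from -0.535 to 0.679). In F1-P against B6-Y r was 0.364, 0.358 and 0.082, and in CMPs it was -0.535, -0.368 and 0.679. Whether same-numbered samples were handled together is not given by the labels and was not tested. A fit with the replicate number as a block called 0 genes in F1-L against F1-P and 0 in CMPs. It called 2787 genes in F1-P against B6-Y (2331 without the block) and 1380 in F1-L against B6-O (1667 without it). The block changed no member's call.

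Leaving out 1 sample at a time, genes called ranged from 0 to 25 (F1-L against F1-P), 927 to 2229 (F1-P against B6-Y, with 1 to 3 members), 448 to 2285 (F1-L against B6-O, with 1 to 3 members), 0 to 48 (B6-O against B6-Y), 0 to 434 (CMPs, with 0 to 2 members in the likelihood ratio test) and 0 to 1 (difference between strains). The summed level ranged from -0.0284 to 0.0845, -0.0646 to 0.2418, -0.1801 to 0.2797, -0.1555 to 0.3044 and, in CMPs, 0.0667 to 0.4937 in the first 5. Members that turned direction spanned, in F1-L against F1-P, -0.0721 to 0.0685 (H2-K1), -0.0167 to 0.0769 (H2-D1), -0.0611 to 0.0803 (H2-Q4), -0.114 to 0.1183 (H2-T23) and -0.1259 to 0.0734 (Nlrc5); in F1-L against B6-O, -0.2955 to 0.0128 (Tap2) and -0.0467 to 0.1581 (Nlrc5); in B6-O against B6-Y, -0.1223 to 0.2935 (H2-K1), -0.1693 to 0.306 (H2-D1), -0.3262 to 0.208 (H2-Q4), -0.0281 to 0.2903 (H2-T23), -0.1428 to 0.0492 (Tap1), -0.1093 to 0.1921 (Tap2) and -0.0434 to 0.2683 (Tapbp); in CMPs, -0.0047 to 0.4517 (H2-Q4), -0.0378 to 0.1755 (Tap2) and -0.2074 to 0.0704 (Tapbp); and for the difference between strains, -0.3007 to 0.1152 (H2-K1), -0.2712 to 0.2041 (H2-D1), -0.2006 to 0.3336 (H2-Q4), -0.1871 to 0.2503 (H2-Q7) and -0.2601 to 0.0583 (H2-T23). With 3 samples a group, no exact permutation test of a summed level could reach 0.05.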

Other observations

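Other genes of the MHC region were compared between strains as well. Between H2-K1 and H2-T23 on chromosome 17 the LSK table held 107 genes that are neither class I heavy chains, class II genes nor members. In F1-P against B6-Y 82 of them were tested, and 14 were called higher and 3 lower in F1-P, where 10% and 6.18% of all genes were. In F1-L against B6-O 82 were tested, with 13 higher and 2 lower, against 7.84% and 3.75% of all genes. In each comparison 4 of the higher calls (2300002M23Rik, Tnxb, Gm18733 and Gm18734) were of genes that did not pass the filter on low values within C57BL/6 LSK and were tested only through the F1 samples, where they were high. Among genes that also passed it within C57BL/6, C2, a complement component, differed by 3.00 ± 0.36 in young mice (limma adjusted p = 0.0014), and Msh5, a meiotic recombination gene, by 2.90 ± 0.16 in older mice (adjusted p = 0.0001). Between stages limma called 0 of 83 in LSK and 0 of 76 in CMPs, where 0.0279% and 0.00774% of all genes were called. Neighbouring genes share a haplotype, and the part of the haplotype in these differences was not tested.

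Class I-like genes outside the region, which bind other ligands than peptides, gave 0 calls of 4 in each comparison in limma. Fcgrt, which encodes the neonatal Fc receptor chain that also pairs with B2m, was 9.48, 7.41 and 14.0 CPM in F1-P LSK and 19.5, 15.7 and 27.6 CPM in F1-L. The stages did not overlap, as for 17.7% of all genes. The log2 fold change of 0.96 ± 0.28 was past the threshold in edgeR's likelihood ratio test (adjusted p = 0.0486) and DESeq2 (adjusted p = 0.0283) but not in limma (adjusted p = 0.234). The likelihood ratio test and DESeq2 called 4.6% and 5.16% of all genes in this comparison. Fcgrt was named after its values were seen. Cd1d1, which presents lipids, was 33.9 to 44.1 CPM in F1 LSK and 39.1 to 52.3 CPM in C57BL/6 LSK.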
